A study of Mus musculus with 8 samples.

Results

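The dopamine receptor family of the mouse consists of 5 genes, Drd1, Drd2, Drd3, Drd4 and Drd5, and each was found by its symbol in the deposited whole-brain RNA-seq table. Together they were listed as 6 of 34535 transcripts, among 24343 genes, because Drd1 had 2 transcripts and each of the others had 1. The older symbol Drd1a did not occur. The table held 8 libraries made from whole brains of 3 C57BL/6NCrl mice, an inbred wild-type strain, all aged 56–62 days and without any experimental treatment. Mouse 1 and mouse 2 gave 3 libraries each, mouse 3 gave 2, and the labels do not say what separates the libraries of a mouse. Values are in FPKM, fragment numbers corrected for transcript length and library depth, so that genes of different length can be set beside each other. A level is the mean of the 3 mouse means, with the SD between mice (n = 3).

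Dopamine receptors are G-protein-coupled receptors in 2 groups. The D1-like receptors, encoded by Drd1 and Drd5, couple to the stimulatory G proteins Gs and Golf and raise cAMP through adenylyl cyclase, whereas the D2-like receptors, encoded by Drd2, Drd3 and Drd4, couple to inhibitory Gi and Go proteins and lower it. In the striatum, the main target of midbrain dopamine neurons, Drd1 marks the medium spiny neurons of the direct pathway and Drd2 those of the indirect pathway. Drd2 is also the autoreceptor of dopamine neurons.

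Between 1.31 and 2.02 gigabases per library lay on annotated transcripts. The FPKM values of all genes summed to 295541–345572 in the libraries of mice 1 and 2, and to 384885 and 409889 in those of mouse 3, so that mouse 3 stood apart in the scale of its libraries. Genes of the main brain cell classes were present in every library, led by Mbp, a myelin protein gene, at 1925 ± 1074 FPKM, and Snap25, a synaptic gene of neurons, at 1056 ± 56.3 FPKM. Of 10 such genes, all tested, 7 differed between the mice (an adjusted p under 0.05, called below), 5 of them higher in mouse 3 and 2 lower, against 25.5% of all 13001 genes tested (14.1% higher and 11.3% lower), with a median difference of 0.39 (log2, mouse 3 minus the mean of mice 1 and 2). Mbp was higher by 1.27 ± 0.09 (log2 ± SE; adjusted p = 0.00393, limma) and Gfap, an astrocyte gene, by 1.03 ± 0.09 (adjusted p = 0.0051, limma), whereas Gad1, an enzyme of GABA synthesis in inhibitory neurons, was lower by 0.61 ± 0.11 (adjusted p = 0.0144, limma). With TPM, values set to the same sum in each library, 6 were called, 2 higher and 4 lower, against 35.1% of all genes. The median difference was 0.30 without library 2 of mouse 3, with 1 library left for that mouse. The summed FPKM of these genes ran from 3551 to 3626 in mouse 1, from 3421 to 3662 in mouse 2, and came to 5029 and 6064 in mouse 3. The part of this difference in cell class genes in any receptor value below was not tested.

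Drd1 lies on the minus strand of chromosome 13 (mm10, 54051183–54055658). Its transcripts have different first exons. NM_010076 begins at 54055658 with a first exon of 98 nt and an intron of 947 nt, and NM_001291801 begins 878 nt further along the gene, at 54054780, with a first exon of 52 nt and an intron of 115 nt. After the first exon, they have about the same sequence, so that 2.78% of the length of NM_010076 and 1.49% of that of NM_001291801 belong to a first exon of its own. Drd2 (chromosome 9, plus strand, 49340662–49407214) was represented by 1 transcript, NM_010077. The promoter sequences of the 2 Drd1 starts and of Drd2 are shown because these genes make up most of the receptor RNA and because the Drd1 level was divided between the starts. They are RefSeq sequences on GRCm38.p6, written 5′ to 3′ on the strand of the gene and cut where an annotated exon begins, and capitals mark a GC box (GGGCGG, or CCGCCC on the other strand). They cover chr13:54054781-54055030 upstream of the Drd1 start of NM_001291801, chr13:54055706-54055908 upstream of that of NM_010076, and chr9:49340153-49340359 upstream of Drd2.
Drd1, start of NM_001291801: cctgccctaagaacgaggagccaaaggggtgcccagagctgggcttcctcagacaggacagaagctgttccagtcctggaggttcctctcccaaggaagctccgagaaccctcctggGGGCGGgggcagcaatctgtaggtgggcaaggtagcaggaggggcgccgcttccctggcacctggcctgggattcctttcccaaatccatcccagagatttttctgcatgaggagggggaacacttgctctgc
Drd1, start of NM_010076: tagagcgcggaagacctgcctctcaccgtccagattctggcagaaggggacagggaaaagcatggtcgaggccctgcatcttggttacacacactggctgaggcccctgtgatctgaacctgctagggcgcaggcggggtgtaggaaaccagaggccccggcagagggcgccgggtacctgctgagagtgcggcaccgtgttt
Drd2: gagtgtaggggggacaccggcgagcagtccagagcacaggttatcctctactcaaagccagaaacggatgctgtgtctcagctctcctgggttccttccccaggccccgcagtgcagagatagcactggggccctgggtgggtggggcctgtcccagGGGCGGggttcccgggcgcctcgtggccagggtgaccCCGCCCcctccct

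The window of NM_001291801, which lies in the intron of NM_010076, holds 1 GC box, that of NM_010076 none, and that of Drd2 holds 2. Windows of 250 bases were found for all 5 genes, and 32.7% of 32851 mouse promoter windows of that length hold a GC box. Drd4 has 3, Drd5 has 2 and Drd3 has none. The letters of a TATA box (TATAAA, in 12.4% of windows), a full cAMP response element (TGACGTCA, 1.55%), its core (TGACG, 17.8%, which is part of the full element), an AP-1 site (TGANTCA, 6.75%) and an E-box (CACGTG, 6.02%) occur on neither strand of any of the 6 receptor windows. The CCAAT box (CCAAT, 33.8%) occurs 2 times at Drd3 and 1 time at Drd4. The windows range in GC content from 39.2% at Drd3 to 71.2% at Drd5, and their CpG numbers place Drd3, with 1 CpG, at percentile 7.87 of all windows and Drd5, with 35, at percentile 97.0. The Drd3 window ends at 43762220, inside the gene as annotated, since RefSeq starts Drd3 at 43754015 and GENCODE vM21 at 43754026. It does not describe that outer start. The Drd2 window and that of NM_010076 have 15 CpGs each, and that of NM_001291801 has 5.

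Drd2 had the highest level of the family, 8.94 ± 1.22 FPKM, and Drd1 followed at 8.65 ± 0.141 FPKM. Drd5 was at 1.09 ± 0.0559 FPKM, Drd3 at 0.232 ± 0.0592 FPKM and Drd4 at 0.0909 ± 0.0238 FPKM. Drd2 thus took 47.1% of the summed receptor FPKM and Drd1 45.5%, against 5.75% for Drd5, 1.22% for Drd3 and 0.479% for Drd4. Among all 24343 genes ordered by level, Drd2 held rank 6442 and Drd1 rank 6583, in the upper part of the 19296 genes above 0, whereas Drd5 held rank 12812, Drd3 rank 15310 and Drd4 rank 16513. In whole-brain RNA, the number of cells that express a receptor and the RNA per such cell cannot be told apart.

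**Figure D1:**
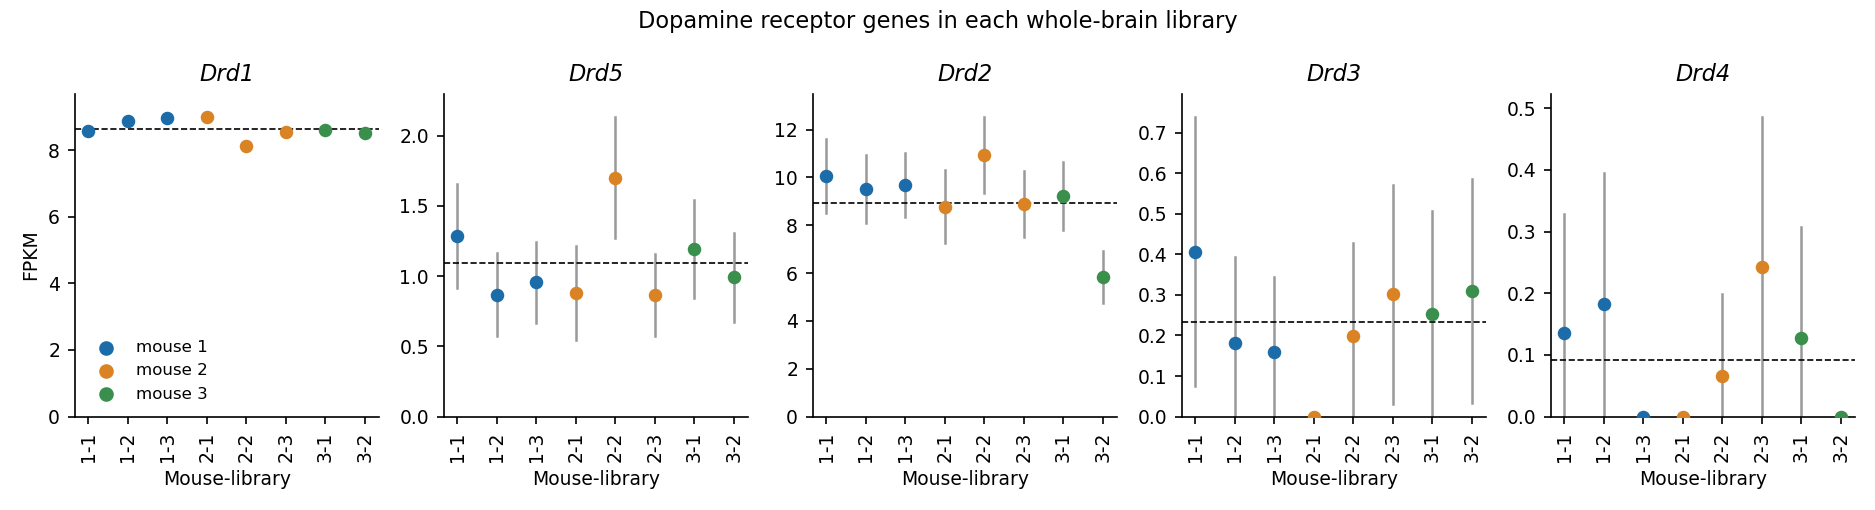
FPKM (y axis, a separate linear scale from 0 in each panel) of the 5 dopamine receptor genes in the 8 libraries (x axis, mouse and library number). Points are libraries coloured by mouse, grey lines the deposited confidence bounds (not drawn for Drd1, whose value is the sum of 2 transcripts), and dashed lines the mean of the 3 mice. Drd1 lies within 8.13–8.98 FPKM throughout, and Drd2 is at 5.84 FPKM in library 2 of mouse 3 against at least 8.77 FPKM elsewhere.

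The order of neighbours in this series of levels was examined on log2(FPKM + 0.1) of the mouse means with an exact sign-flip test, which cannot give a p below 0.25 with 3 mice. Drd2 and Drd1 did not differ beyond their spread. The difference was 0.04 ± 0.19 (log2 ± SD, n = 3; exact two-sided p = 1), and Drd2 was the higher in 6 of 8 libraries and in 2 of 3 mice. Drd1 was above Drd5 in all 8 libraries, with a 7.92-fold ratio of mean levels and a log2 difference of 2.88 ± 0.09. Drd5 was above Drd3 in all 8 libraries as well, by a 4.70-fold ratio and 1.86 ± 0.32 on the log2 scale. Drd3 was above Drd4 in 6 of 8 libraries, by a 2.55-fold ratio and 0.79 ± 0.41 on the log2 scale. For each of these 3 steps the exact two-sided p was 0.25, and 0.333 after adjustment over the 4 pairs.

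Drd1, the main D1-like receptor of striatal direct-pathway neurons, was nearly the same in every library on the FPKM scale. It measured 8.58, 8.88 and 8.96 FPKM in libraries 1, 2 and 3 of mouse 1, then 8.98, 8.13 and 8.56 FPKM in those of mouse 2, and 8.62 and 8.53 FPKM in those of mouse 3. The ranges of the 3 mice overlapped, and library 2 of mouse 2 was the lowest. The coefficient of variation over the 8 libraries was 3.27%, against a median of 14.3% over the 13001 genes whose mean reached 1 FPKM, and 0.346% of those genes varied less. Without library 2 of mouse 3 the coefficient was 3.46%, and 1.55% of genes varied less. The log2 difference of mouse 3 from the other two mice was -0.02 ± 0.07 (± SE; adjusted p = 0.883, limma's moderated F-test). Each value rested on between 52658 and 76781 sequenced bases. On the TPM scale Drd1 was less even, from 20.8 in library 2 of mouse 3 to 30.4 in library 1 of mouse 2. Both libraries of mouse 3 were the lowest on that scale.

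The division of Drd1 between its transcripts was far less even than the sum. NM_001291801, with the start nearer the coding exon, was at 7.70, 6.59 and 6.53 FPKM in libraries 1, 2 and 3 of mouse 1, at 8.98, 5.68 and 6.54 FPKM in those of mouse 2, and at 6.78 and 4.24 FPKM in those of mouse 3. NM_010076 took 10.3%, 25.8% and 27.1% of the Drd1 level in the libraries of mouse 1, then 0.00956%, 30.2% and 23.6% in those of mouse 2, and 21.3% and 50.3% in those of mouse 3. The share varied widely within each mouse, and was lowest in library 1 of mouse 2 and highest in library 2 of mouse 3. In the latter the deposited bounds of NM_010076 (3.52–5.05 FPKM) and NM_001291801 (3.47–5.01 FPKM) overlapped. In the other 7 libraries they did not. Since the estimate tells the transcripts apart by 98 and 52 nt of first exon, only the sum is used for the level of Drd1.

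**Figure D2:**
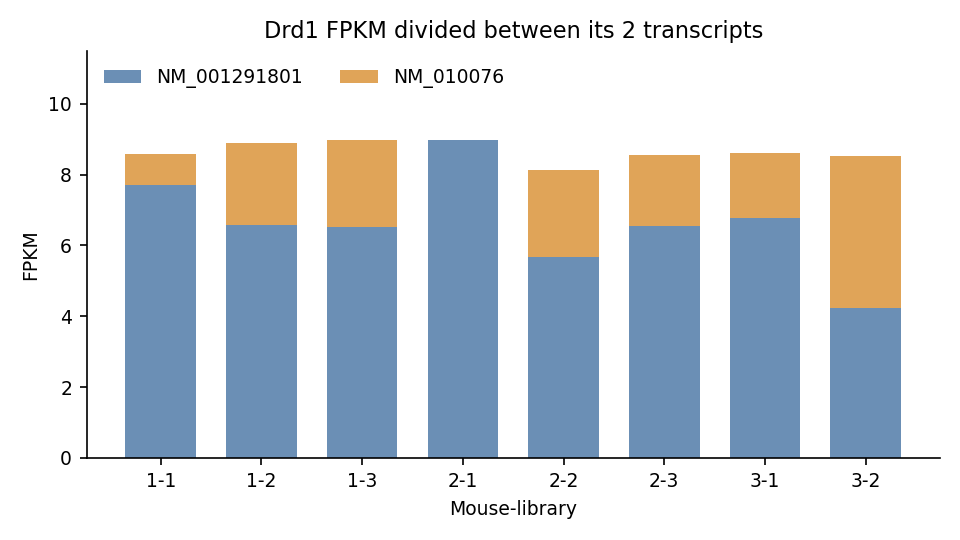
FPKM of Drd1 in each library (x axis, mouse and library number), stacked by transcript with NM_001291801 below and NM_010076 above. The summed height stays between 8.13 and 8.98 FPKM while the share of NM_010076 runs from 0.00956% in library 1 of mouse 2 to 50.3% in library 2 of mouse 3.

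Drd5, the other D1-like receptor, has higher affinity for dopamine than Drd1 and is expressed outside the striatum, in cortex and hippocampus among other regions. The gene (chromosome 5, plus strand, 38319509–38322523) is 1 exon of 3015 nt. It measured 1.29, 0.868 and 0.957 FPKM in mouse 1, then 0.880, 1.70 and 0.866 FPKM in mouse 2, and 1.19 and 0.990 FPKM in mouse 3, in the order of the libraries. Library 2 of mouse 2 was the highest, and the mice overlapped. From the width of the deposited bounds these values correspond to 28.0–62.7 fragments per library, and the coefficient of variation of 26.6% was above that of 87.5% of the genes tested. The difference of mouse 3 from mice 1 and 2 was 0.01 ± 0.15 (log2 ± SE; adjusted p = 0.944, limma). A small noncoding gene, Gm26560, lies within Drd5 on the opposite strand in GENCODE vM21. It has no row in the table, and whether the counting used strand is not given in the sources used here.

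Drd2, the main D2-like receptor, had 1 library below all others. It measured 10.1, 9.51 and 9.70 FPKM in mouse 1, then 8.77, 10.9 and 8.89 FPKM in mouse 2, and 9.23 and 5.84 FPKM in mouse 3, in the order of the libraries. Library 2 of mouse 3 was the lowest and library 1 of the same mouse lay among those of mice 1 and 2. The deposited bounds of the lowest library, 4.74–6.94 FPKM, did not overlap those of the next lowest, library 1 of mouse 2, at 7.24–10.3 FPKM. The bounds correspond to 112 fragments in library 2 of mouse 3 and to between 131 (library 1 of mouse 2) and 209 in the others. Over the 8 libraries the coefficient of variation of Drd2 was 16.4%, above that of 60.5% of the genes tested, and without library 2 of mouse 3 it was 7.77%, above that of 22.9%.

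Of the 5 receptors, 3 (Drd1, Drd2 and Drd5) reached a mean of 1 FPKM and entered the test between the mice. None of the 3 was called at an adjusted p under 0.05 by limma. An unadjusted p under 0.05 was reached by 0 of 3, and the share of all genes at that threshold is not given here. Among all 13001 genes tested, 25.5% were called, 14.1% higher and 11.3% lower in mouse 3. For Drd2 the difference was -0.34 ± 0.15 (log2 ± SE; adjusted p = 0.220, limma). On the TPM scale, where the values of each library are set to the same sum, the difference was -0.66 and Drd2 was called (adjusted p = 0.0401, limma), while Drd1 (adjusted p = 0.114) and Drd5 (adjusted p = 0.658) were not. On that scale 35.1% of all genes were called, 4.44% higher and 30.7% lower in mouse 3, and the median of all genes moved by -0.24, leaving a difference of -0.42 for Drd2 relative to it. Drd2 was also called without library 1 of mouse 3, at -0.63 (adjusted p = 0.0233, limma), and was at -0.05 (adjusted p = 0.891, limma) without library 2, each with 1 library left for mouse 3. The libraries of a mouse may differ for technical reasons only, so that these p-values compare 3 individual mice.

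The balance between the 2 groups of receptors does not depend on the scale of a library. Drd1 and Drd5 together made up 48.2%, 49.7% and 50.2% of the receptor FPKM in the libraries of mouse 1, then 52.9%, 46.8% and 50.0% in those of mouse 2, and 50.5% and 60.8% in those of mouse 3. The mean D1-like share was 51.6% ± 3.48, and the test between the mice did not pass its threshold (exact permutation over all 280 ways to group the libraries, p = 0.229, adjusted over 2 measures 0.357). The mouse means were 49.3%, 49.9% and 55.6%. Without library 2 of mouse 3 the mean share was 49.9%, with a range of 46.8–52.9% over the 7 libraries and an exact permutation p of 0.843. The log2 ratio of Drd1 to Drd2 was -0.02 ± 0.21, with mouse means of -0.15, -0.15 and 0.22 (exact permutation p = 0.357), and lay between -0.43 in library 2 of mouse 2 and 0.55 in library 2 of mouse 3. After removal of the trend of each library with transcript length, the test between the 3 mice passed its threshold for the share (exact permutation p = 0.0286, unadjusted). It also did so for the log2 ratio (exact permutation p = 0.0357, unadjusted). The differences of mouse 3 from the mean of mice 1 and 2 were then 10.6 percentage points and 0.65, against 6.01 points and 0.37 without that correction. With only the highest transcript of each gene these differences were 0.984 points and 0.028, and the test between the mice gave an exact permutation p of 0.886 and 0.907. Drd2 (1549 nt) and Drd1 (3482 and 3529 nt) differ in the length of their models.

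**Figure D3:**
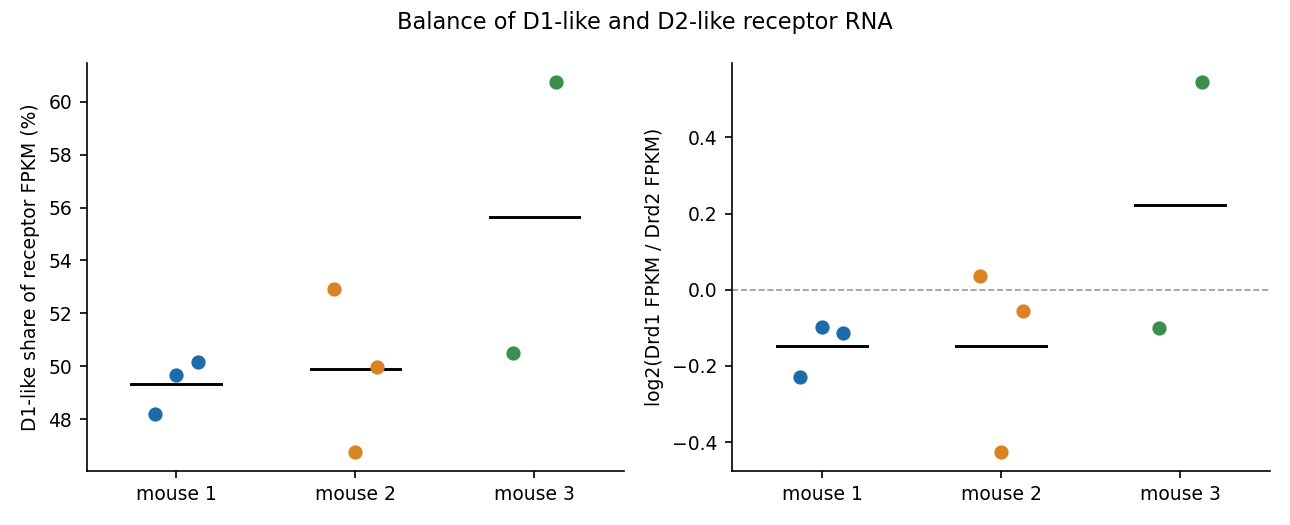
The D1-like share of the summed receptor FPKM (left, %) and the log2 ratio of Drd1 to Drd2 FPKM (right) by mouse. Points are libraries, black lines are mouse means and the dashed line marks equal levels. Library 2 of mouse 3 is the highest in both panels, at 60.8% and 0.55, and library 1 of mouse 3, at 50.5% and -0.10, lies among mice 1 and 2.

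Drd3 and Drd4 were close to the limit of detection. Drd3 (chromosome 16, plus strand, 43762242–43822839), a D2-like receptor of the ventral striatum and islands of Calleja, measured 0.406, 0.182 and 0.160 FPKM in mouse 1, then 0, 0.198 and 0.302 FPKM in mouse 2, and 0.253 and 0.309 FPKM in mouse 3. By their bounds these values correspond to 0–6.00 fragments per library and 29.0 in all. The listed 0, in library 1 of mouse 2, allows a level of up to 0.243 FPKM, the value of 3 fragments at that depth, which is above 3 of the other values. Drd4 (chromosome 7, plus strand, 141292006–141295001), a D2-like receptor of prefrontal cortex that is also abundant in retina and pineal gland, measured 0.136, 0.183 and 0 FPKM in mouse 1, then 0, 0.0663 and 0.242 FPKM in mouse 2, and 0.127 and 0 FPKM in mouse 3. These values correspond to 12.0 fragments over all libraries, and the 3 listed zeros allow up to 0.163, 0.244 and 0.189 FPKM in the order given. No difference between the mice was detectable at this depth. With no filter on low values, mouse 3 differed by 0.09 ± 0.12 for Drd3 (log2 ± SE; adjusted p = 0.714, limma) and by -0.05 ± 0.10 for Drd4 (adjusted p = 0.944, limma), against 14% of 19296 genes called.

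**Figure D4:**
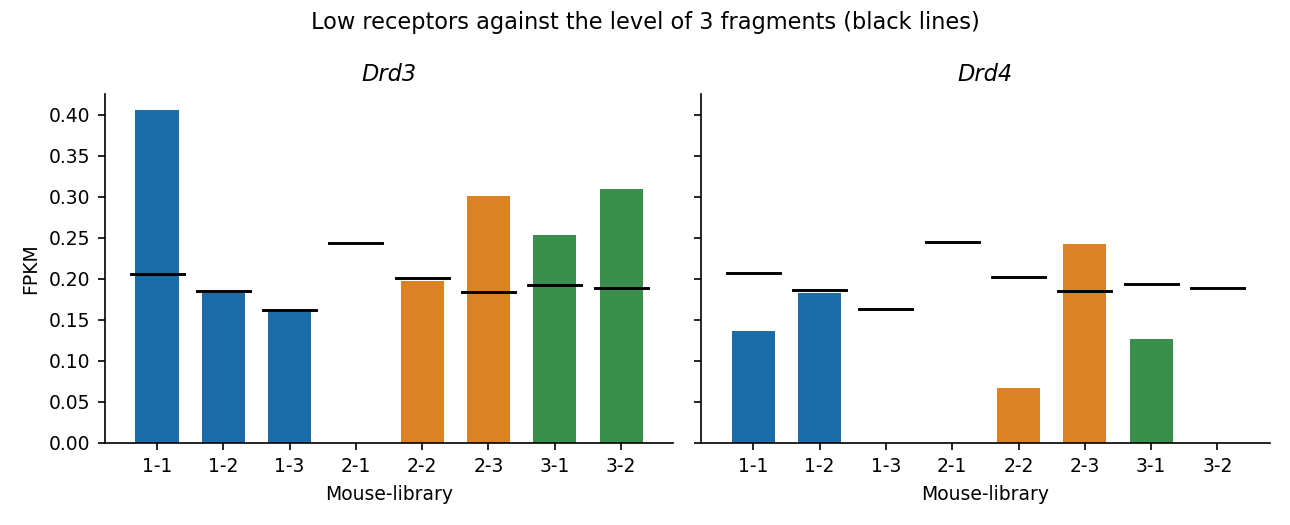
FPKM of Drd3 (left) and Drd4 (right) in the 8 libraries (x axis, mouse and library number), bars coloured by mouse, with a black line at the value of 3 fragments for a transcript of that length in that library. Drd3 is listed at 0 in 1 library and Drd4 in 3, and the bars reach at most 0.406 and 0.242 FPKM.

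The models of the 3 D2-like receptors cover less of the genome than the RefSeq annotation. At the 5′ end RefSeq begins 8227 nt before the Drd3 model, 302 nt before that of Drd2 and 32 nt before that of Drd4. The RefSeq annotation extends Drd3 by 3143 nt beyond the 3′ end of the model in the table, Drd4 by 1463 nt and Drd2 by 963 nt, whereas Drd1 and Drd5 end where their models end. GENCODE vM21 ends Drd2 and Drd4 with RefSeq and Drd3 at 43822932. The 1341 nt of the Drd3 model are a multiple of 3, as are the 3015 nt of the Drd5 model. Fragments from RNA beyond the modelled ends were not part of the FPKM of the 3 D2-like receptors, and the size of this share was not tested. A small gene, Gm25996, lies inside Drd3 on the same strand in GENCODE and has no row in the table.

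Other tissues that carry these receptors had few markers in the libraries. Pituitary lactotrophs express Drd2, and Prl, their hormone, was at 0.165 ± 0.0843 FPKM. Of 7 pituitary genes 1 was tested, Pomc, which is also a gene of hypothalamic neurons, at 1.58 ± 0.393 FPKM, and it was not called (adjusted p = 0.117, limma). The next highest, the growth hormone gene Gh, was at 0.369 ± 0.201 FPKM, and the list summed to 2.41–2.76 FPKM in mouse 1, 2.19–3.17 in mouse 2 and 2.12–2.57 in mouse 3. Of 9 genes of pineal gland and photoreceptors, where Drd4 is abundant, Aanat, the enzyme that times melatonin synthesis, was at 0.125 ± 0.0815 FPKM and Sag, the arrestin of photoreceptors, at 0.905 ± 0.334 FPKM. Rom1 alone was tested, at 3.41 ± 0.837 FPKM (adjusted p = 0.0951, limma), and the list summed to 3.82–5.17 FPKM in mouse 1, 3.64–4.82 in mouse 2 and 5.62–6.55 in mouse 3. Most of that sum was Rom1, and the members did not move together. In mice 1, 2 and 3 Rom1 was at 3.01, 2.86 and 4.38 FPKM, and Aanat at 0.182, 0.160 and 0.0313 FPKM. Drd4 itself was at 0.0636 FPKM in mouse 3 against 0.106 and 0.103 FPKM in mice 1 and 2. Its relation to these genes was not tested.

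Dopamine neurons supply the ligand. Th, which makes the dopamine precursor L-DOPA, was at 6.70 ± 0.545 FPKM and Slc6a3, the dopamine transporter, at 3.10 ± 0.329 FPKM, both below Drd1 and Drd2. In mouse 3, Th was at 7.10 and 5.09 FPKM, the latter, in library 2, being the lowest of all 8, and was not called (adjusted p = 0.534, limma), nor was Slc6a3 (adjusted p = 0.549, limma). Of 9 genes of dopamine neurons, 6 were tested and 2 were called, near the 25.5% of all genes, with a median difference of 0.16 in mouse 3 against 0.02 over all genes tested. Aldh1a1, a retinaldehyde dehydrogenase also made by other brain cells, was higher in mouse 3 by 1.15 ± 0.11 (log2 ± SE; adjusted p = 0.0051, limma), from a mean of 55.0 FPKM. Nr4a2, a transcription factor of dopamine neurons that is also expressed in cortex, was lower by 0.43 ± 0.09 (adjusted p = 0.0207, limma). Ddc, which converts L-DOPA to dopamine, was at 6.74 ± 0.680 FPKM and was not called (adjusted p = 0.200, limma). With TPM, 2 of the 6 were called, Aldh1a1 and Nr4a2 in the same directions, against 35.1% of all genes. Without library 2 of mouse 3 the median difference was 0.14.

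The G proteins that the receptors act on were all above the receptors in level, from 12.3 FPKM for Gnai3 upwards. Gnas, the stimulatory alpha subunit, was at 639 ± 29.9 FPKM, Gnb1, a beta subunit, at 208 ± 12.6 FPKM, and Gnal, the Golf subunit through which striatal Drd1 acts, at 38.7 ± 2.01 FPKM, and none of these was called. Of 11 subunits tested, 5 were called, 2 higher and 3 lower in mouse 3, against 25.5% of all genes (14.1% higher and 11.3% lower), with a median difference of 0.02 here and over all genes. Gng7, the gamma subunit that pairs with Golf in striatum, was higher by 0.68 ± 0.08 (adjusted p = 0.00699, limma) and Gnai2, an inhibitory alpha subunit, by 0.39 ± 0.08 (adjusted p = 0.0241, limma). Gnao1, the main Go subunit of neurons, was lower by 0.44 ± 0.09 (adjusted p = 0.0201, limma). With TPM, 6 of 11 were called, 1 higher and 5 lower, against 35.1% of all genes (4.44% higher and 30.7% lower). Gnai2 was not among the 6 (adjusted p = 0.498, limma). The median difference was -0.03 without library 2 of mouse 3, with 1 library left for that mouse.

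Adenylyl cyclases are the enzymes that both groups of receptors regulate. Adcy1, stimulated by calcium, was at 59.5 ± 7.54 FPKM, and Adcy5, the main cyclase of striatum, at 35.3 ± 3.77 FPKM. Of 10 cyclases, 8 were tested and none was called by limma, against 25.5% of all genes, with a median difference of -0.08. An unadjusted p under 0.05 was reached by 3 of 8, and the share of all genes at that threshold is not given here. All 3 that were called with TPM, where 35.1% of all genes were, were lower in mouse 3.

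Further down the cAMP cascade, with the potassium channels opened by Gi and Go, 7 of 15 genes were called, 1 higher and 6 lower in mouse 3, against 14.1% and 11.3% of all genes. The median difference was -0.25. Prkar1a and Prkar1b, regulatory subunits of protein kinase A, were the highest of the list at 190 ± 5.29 and 165 ± 43.0 FPKM, and neither was called. Prkar1b stood at 70.7 FPKM in library 2 of mouse 3 and at 161 FPKM or more in the others. Ppp1ca, a catalytic subunit of protein phosphatase 1, was higher by 0.68 ± 0.12 (adjusted p = 0.0149, limma). Kcnj3, a subunit of the G-protein-gated potassium channels that D2-like receptors open, was lower by 0.51 ± 0.07 (adjusted p = 0.00785, limma), at 17.1 and 18.7 FPKM in mouse 3 against 24.8–27.0 FPKM in the others. Ppp1r1b, which encodes DARPP-32, a target of protein kinase A in striatal neurons, was lower by 0.25 ± 0.08 (adjusted p = 0.0415, limma). With TPM, 13 of 15 were called, 12 of them lower, against 35.1% of all genes called and 30.7% called lower. Without library 2, mouse 3 had 1 library left, so only the median difference is given, at -0.18.

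Regulators that bind or desensitise the receptors showed 2 calls among 15 genes tested, both higher in mouse 3, a share below the 25.5% of all genes that were called and near the 14.1% called higher, with a median difference of 0.03. They were Ncs1, a calcium sensor that binds the D2 receptor, by 0.56 ± 0.11 (adjusted p = 0.0192, limma), and Ppp1r9b, the spine scaffold spinophilin, by 0.49 ± 0.10 (adjusted p = 0.0206, limma). Ppp1r9b was also the highest of the list, at 152 ± 31.4 FPKM, followed by Rgs4, which speeds the shut-off of Gi and Gq, at 98.5 ± 6.48 FPKM. The 5 called with TPM were all lower, where 35.1% of all genes were called and 30.7% were called lower. Ncs1 and Ppp1r9b were not among the 5 (adjusted p = 0.111 and 0.506, limma). The median difference was 0.12 without library 2 of mouse 3, with 1 library left for that mouse.

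Genes of striatal medium spiny neurons, in which Drd1 and Drd2 mark the direct and indirect pathways, were examined as well. Of 12 genes shared by both pathways, 5 were called and all 5 were lower in mouse 3, against 11.3% of all genes, with a median difference of -0.26. They were Pde10a, the striatal phosphodiesterase (lower by 0.63 ± 0.16, adjusted p = 0.0479, limma), the transcription factors Foxp1 (by 0.56 ± 0.11, adjusted p = 0.0203) and Bcl11b (by 0.53 ± 0.12, adjusted p = 0.0321), Arpp21, a cAMP-regulated phosphoprotein (by 0.28 ± 0.07, adjusted p = 0.0443), and Ppp1r1b. Other members were higher in mouse 3 on the FPKM scale and were not called, Adcy5 by 0.24, Rasd2 by 0.18 and Rasgrp2 by 0.05. The remaining members were lower and not called. Rasd2 and Rasgrp2 were named after their values were seen. Arpp21, at 98.5 ± 11.1 FPKM, and Ppp1r1b, at 89.7 ± 10.9 FPKM, were the highest of the list. With TPM, 9 of 12 were called, all lower, against 35.1% of all genes called and 30.7% called lower. Without library 2, mouse 3 had 1 library left, so only the median difference is given, at -0.21. Ppp1r1b, Pde10a and Rgs9 also stand in other lists above, and several of these genes are expressed in cortex too.

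Of 7 genes of the direct pathway, which carries Drd1, Sfxn1 was called, higher in mouse 3 by 0.37 ± 0.08 (adjusted p = 0.0315, limma), and the median difference was 0.03. That is 1 call among 7, against 25.5% of all genes (14.1% higher). Tac1, the precursor of substance P and the highest of the list, was at 31.2 ± 7.23 FPKM (adjusted p = 0.0557, limma), and Pdyn, the dynorphin precursor, at 9.27 ± 0.581 FPKM (adjusted p = 0.618, limma). Of 6 genes of the indirect pathway, which carries Drd2, Sp9, a transcription factor, was called, lower by 0.57 ± 0.12 (adjusted p = 0.024, limma) from a mean of 1.56 FPKM, and the median difference was -0.20. That is 1 call among 6, against 11.3% of all genes called lower. Penk, the enkephalin precursor, was at 90.1 ± 3.48 FPKM with values of 83.3–96.2 FPKM over the libraries (adjusted p = 0.488, limma). Adora2a, the adenosine receptor that stands beside the D2 receptor on these neurons, was at 9.17 ± 0.833 FPKM (adjusted p = 0.436, limma), close to the level of Drd2. On the TPM scale 2 direct-pathway and 2 indirect-pathway genes were called, all lower, where 35.1% of all genes were called and 30.7% called lower. Sfxn1 was not among them (adjusted p = 0.689, limma). The median differences were 0.07 (direct) and -0.04 (indirect) without library 2 of mouse 3, with 1 library left for that mouse.

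In library 2 of mouse 3, where Drd2 was lowest, Drd2 lay 0.55 below its own mean over the libraries on the log2(FPKM + 1) scale and Drd1 0.02 below. The median of the shared striatal genes was 0.24 below and that of the indirect-pathway genes 0.30 below, whereas that of the direct-pathway genes was 0.01 below and that of all 13001 genes 0.02 above. Among single genes, Pde10a was at 12.7 FPKM there against 21.5–27.4 FPKM in the other libraries, and Rgs9, a striatal regulator of G-protein signalling chosen after its values were seen, was at 7.39 against 14.4–19.1 FPKM. Penk, at 87.6 FPKM, and Tac1, at 40.1 FPKM, were not low in that library. The direct-pathway genes moved in both directions there. Tac1 and Sfxn1 (25.2 FPKM) were at their highest of the 8 libraries, and Chrm4 (4.64 FPKM) and Slc35d3 (1.49 FPKM) at their lowest. Chrm4 and Slc35d3 were also chosen after their values were seen. In library 1 of mouse 2 the direct-pathway and indirect-pathway medians both lay 0.20 below, and that of all 13001 genes 0.11 below. Drd1 lay 0.05 above there and Drd2 0.03 below. The part of any of these genes in the low Drd2 value of library 2 of mouse 3 was not tested.

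**Figure D5:**
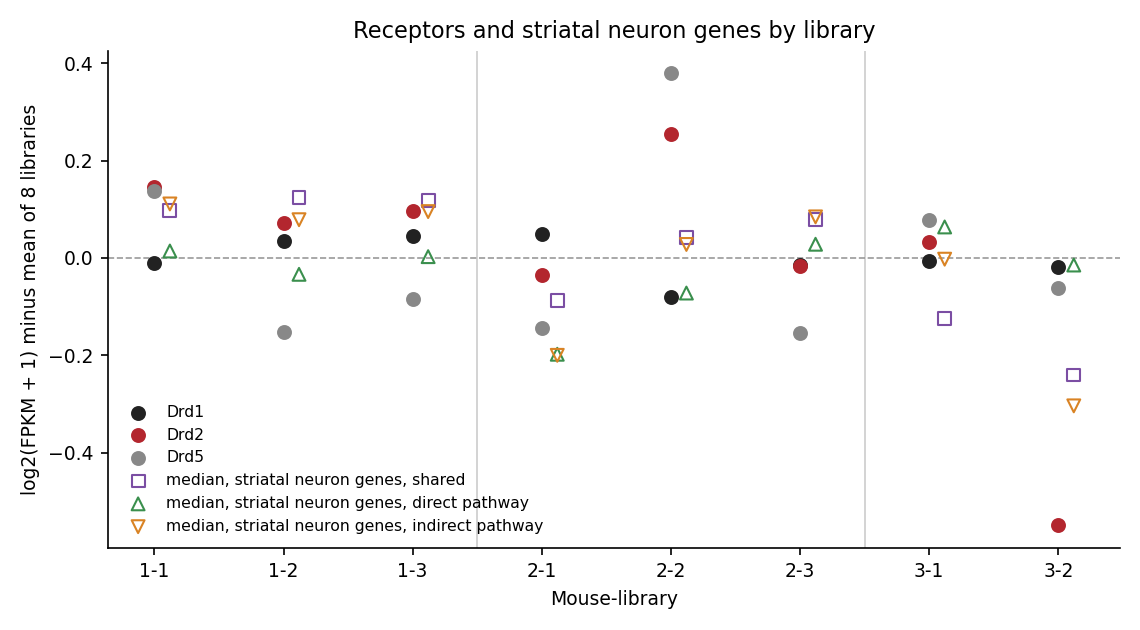
Deviation from the mean of the 8 libraries on the log2(FPKM + 1) scale (y axis) by library (x axis, mouse and library number; vertical lines separate the mice). Filled points are Drd1, Drd2 and Drd5, and open symbols, shifted to the right, the medians of 3 lists of striatal genes. In library 2 of mouse 3, Drd2 lies at -0.55, the indirect-pathway median at -0.30 and the shared median at -0.24, and Drd1 and the direct-pathway median lie at -0.02 and -0.01.

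Across the 8 libraries, the genes with the pattern most like that of Drd1 were Il17d (Pearson's r = 0.94 of log2(FPKM + 1)), Vps37a (0.88), Zfp959, Rbm41 and Dcun1d3 (0.87). For Drd2 they were Sugp2 (r = 0.98), Eftud2, Mapkbp1, Gpr45 and Nacad (0.97). These are the closest of 13001 genes over only 8 libraries of 3 mice, all of which share their depth and scale within a library, and they are given as a description. Of each 5, only 1 remained among the closest 5 by Spearman's rho and none on the TPM scale. Without library 2 of mouse 3, 1 of the 5 remained for Drd1 and none for Drd2. Drd1 and Drd2 had an r of -0.09 with each other, and -0.66 over the 7 libraries without library 2 of mouse 3. Drd5 had an r of -0.80 with Drd1 and 0.45 with Drd2. Without library 2 of mouse 3 these were -0.84 and 0.85. Library 2 of mouse 2 had the lowest Drd1 and the highest Drd2 and Drd5 of all 8.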

How the data were processed

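Whole-brain RNA of 3 mice was sequenced as 8 libraries. Per the submitters' processing notes, reads were handled with TopHat and Cufflinks on mm10. Versions, read length and strand setting are not given in the sources used here. The authors deposited FPKM with confidence bounds and the coverage signal (read depth per base, not scaled to library size) for each RefSeq transcript. Reads were divided between the transcripts of a gene by estimation, so that values of single transcripts depend on it more than their sum.

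FPKM was summed over the transcripts of each gene and averaged per mouse and then over mice. Bases are coverage multiplied by length. The deposited bounds lie 2 SD from the value, which gave implied fragment numbers, whole within 0.05 in 72.7% of 25901 values under 20 fragments. The value of 3 fragments was taken as the limit at 0, from genes within 10% of the same length. Bounds and limits cover counting error only. Mice were compared with limma 3.58.1 (R 4.3.3) on log2(FPKM + 1) among the 13001 genes whose mean reached 1 FPKM. P-values were adjusted by Benjamini-Hochberg over these genes, and an adjusted p under 0.05 was called, with the sign of mouse 3 minus the mean of mice 1 and 2 as its direction. Fold changes on this scale understate the change of low genes. Within-library ratios were compared by exact permutation, one-sided for a larger spread between mice. Scripts were checked on simulated data.

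Named genes are the receptors, the 5 genes most like Drd1 and Drd2 each, the 2 highest genes and the 3 called genes whose mouse means spanned most in each list, and 12 genes of striatum, dopamine neurons, pituitary and pineal gland. Members and lists were chosen with earlier results of these data known. The alternatives were another pseudocount, no filter, TPM (FPKM scaled to equal sums), removal of the trend with transcript length (lowess, span 0.3), the highest transcript, the library number as a block and leaving out each library. Scaling to the median was added after the data were seen, as were the analyses of lists and levels without library 2 of mouse 3.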

Additional observations from a re-analysis of the deposited data

Results flagged for a closer look

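Of 8 receptor measures examined over the 8 libraries, 2 had a library farther from the others than Dixon's 95% limit allows, and such a test marks about 1 in 20 measures by chance. The libraries come from 3 mice and are not independent samples. Drd2 was at 5.84 FPKM in library 2 of mouse 3, with the nearest library at 8.77 FPKM, a gap of 0.576 of the whole range. The D1-like share was 60.8% in the same library, with the nearest at 52.9%, a gap of 0.559 of the range. The share contains Drd2 in its denominator, so these are not separate results. Drd1 in that library, at 8.53 FPKM, was within the range of the others.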

How the results depend on the processing

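With 1 library left out, genes that differed between the mice numbered 126 to 3873, against 3310 with all libraries. The 126 were found without library 2 of mouse 3 and 1671 to 1909 without each library of mouse 1. When 1 library of mouse 3 is left out, the other is assumed to vary like those of the other mice. On the TPM scale 5191 genes were called, 12.6% of them higher in mouse 3, against 55.4% of those called with FPKM. Same-numbered libraries did not deviate together (correlations of 0.00276 to 0.107), so the numbers share only a name. With the library number as a replicate block 2995 genes were called, and the Drd5 difference of mouse 3 turned to -0.047. It was -0.20 on the TPM scale and -0.058 to 0.099 with 1 library left out, and never passed the threshold. The Drd1 difference was 0.029 with the length trend removed, -0.31 with TPM (adjusted p = 0.114, limma), -0.31 with the highest transcript (adjusted p = 0.433, limma), and -0.032 to -0.00023 with 1 library left out. The Drd2 difference passed the threshold at -0.66 (TPM), and ran from -0.63 to -0.054 with 1 library left out (adjusted p 0.0233 to 0.891 over all 15 alternatives, limma). With the length trend removed, the test between the mice passed the threshold for the D1-like share and for the log2 ratio of Drd1 to Drd2. The differences of mouse 3 were then 10.6 percentage points and 0.65, and ran from 0.887 to 11.1 points and from 0.049 to 0.69 with 1 library left out. With the highest transcript of each gene, which leaves out 1 of the Drd1 transcripts, these differences were 0.984 points and 0.028. The test between the mice then gave an exact permutation p of 0.886 and 0.907. The cause of these changes was not tested. Levels on the TPM scale were 25.2 (Drd1), 3.16 (Drd5), 26.3 (Drd2), 0.659 (Drd3) and 0.269 (Drd4), in the same order as in FPKM. The Drd1 level was 6.51 FPKM from its highest transcript. With 1 library left out, levels were 8.58–8.72 (Drd1), 1.00–1.14 (Drd5), 8.38–9.51 (Drd2), 0.206–0.260 (Drd3) and 0.0677–0.112 (Drd4) FPKM. Depth limits Drd3 and Drd4, at 29.0 and 12.0 fragments over all libraries, and Drd5 at 28.0–62.7 per library.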
